A study of Mus musculus with 24 samples.

Results

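Germinal centre (GC) B cells open many distal regions that lie far from any gene start, and the peaks described here are the intergenic part of that distal landscape. The members were the autosomal consensus peaks that overlapped no gene body of GENCODE and whose nearest annotated transcription start site (TSS) was more than 10 kb and at most 100 kb away. There were 9090 such peaks among the 65483 peaks of the deposited count table. Of the other peaks, 42690 lay within 10 kb of a TSS, 11836 lay in a gene body farther from a TSS, 265 were intergenic beyond 100 kb, and 1602 lay on the sex chromosomes or the mitochondrial genome. The members were chosen by annotation alone, with no measured value in the rule.

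Chromatin accessibility was measured by ATAC-seq, in which a transposase inserts adapters into open DNA, in splenic GC B cells sorted from mice 10 days after immunization with sheep red blood cells (SRBC). The 4 genotypes were Cg1Cre+/- (WT, 4 mice), Cg1Cre+/- with Crebbp fl/+ (C, 4 mice), Cg1Cre+/- with Kmt2d fl/+ (K, 4 mice) and Cg1Cre+/- with both floxed alleles (CK, 5 mice), all on a C57BL/6J background and with 1 library per mouse. All 17 mice, WT included, therefore carried the Cre, which is driven from the Ighg1 locus and acts in activated B cells, and the mutant mice kept 1 intact allele of each targeted gene. Libraries were made from 60000 live cells and held between 17483706 and 21857738 fragments in peaks.

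CREBBP is an acetyltransferase that acetylates H3K27 at active enhancers, and KMT2D is a methyltransferase that places H3K4 monomethylation at enhancers. Intergenic accessible regions at such distances from genes hold many enhancers, insulators bound by CTCF and starts of transcripts that the annotation does not list, and accessibility alone does not tell these apart. In bulk samples, a lower value cannot be told apart from fewer cells in which the region is open.

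The labels were checked before the comparisons. All 10 GC B cell marker genes had a peak within 1 kb of a TSS, with a sum of 816 to 900 CPM in WT, 788 to 849 in C, 812 to 842 in K and 765 to 827 in CK. CPM are counts scaled by TMM-normalised library size, except that the marker values were scaled by total counts in peaks. Of markers of other cell types, 3 of 8 T-cell, 3 of 6 myeloid and 2 of 4 erythroid genes had such a peak. So did 1 of 3 NK-cell, 3 of 4 plasma cell and 2 of 3 stroma genes. Cd3e, Cd4, Cd8a, Itgam, Lyz2, Gata1 and Ncr1 had none. The plasma cell sum was 137 to 143 CPM in WT and 136 to 147 in CK. The stroma sum was 16.3 to 18.6 CPM in WT and 15.6 to 21.3 in CK. The T-cell sum, from Cd3d, Tcf7 and Gata3, was 90.8 to 98.4 CPM in WT and 92.9 to 104 in CK. Of these, only Gata3 separated CK from WT, at 59.0 to 61.9 CPM in WT and 63.5 to 69.8 in CK. The myeloid sum, from Csf1r, Cebpa and Cd14, was 16.8 to 20.7 CPM in WT, 17.5 to 21.9 in C, 19.2 to 23.4 in K and 21.2 to 23.9 in CK. The NK-cell value, from Eomes alone, was 3.71 to 4.81 CPM in WT, 4.86 to 5.78 in C, 4.34 to 6.44 in K and 5.80 to 7.42 in CK. For the myeloid sum and the NK-cell value, every CK mouse lay above every WT mouse. The part of these markers, and of Gata3 and Sdc1, in the results below was not tested. Of the 3 myeloid genes, Cebpa alone separated these mice, with 11.3 to 13.4 CPM in WT and 14.6 to 15.7 in CK. Csf1r and Cd14 overlapped between WT and CK. The peaks over Crebbp summed to 43.3 to 47.5 CPM in WT and 41.3 to 46.4 CPM in C, and none of the peaks over Crebbp or Kmt2d was called in any mutant, so accessibility gave no check of the deletions. Y chromosome genes had signal in 9 of 17 libraries, with some such libraries in each of the 4 genotypes.

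As examples of these regions, the central 200 bases are shown for the 3 lost and the 3 gained peaks with the lowest adjusted p in CK and for the most accessible member in WT (GRCm38, plus strand). Capitals mark matches, on either strand, to the motifs searched below. The 3 lost regions, named by their nearest gene, were the following, of which only the second held a match (PU.1/SpiB).
chr4:55432002-55432201 (Gm12505): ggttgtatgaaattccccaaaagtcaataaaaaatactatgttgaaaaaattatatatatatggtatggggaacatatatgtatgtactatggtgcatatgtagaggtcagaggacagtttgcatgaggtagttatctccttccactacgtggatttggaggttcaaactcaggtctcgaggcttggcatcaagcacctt
chr4:125266081-125266280 (1700041M05Rik): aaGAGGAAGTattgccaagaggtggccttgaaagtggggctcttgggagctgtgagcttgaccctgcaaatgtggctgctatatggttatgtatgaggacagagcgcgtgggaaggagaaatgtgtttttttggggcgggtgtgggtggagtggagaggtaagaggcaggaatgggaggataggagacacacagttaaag
chr16:21364951-21365150 (Magef1): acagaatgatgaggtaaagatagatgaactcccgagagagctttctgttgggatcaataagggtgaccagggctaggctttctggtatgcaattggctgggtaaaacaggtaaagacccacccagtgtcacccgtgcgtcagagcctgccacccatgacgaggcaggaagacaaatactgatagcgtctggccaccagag
The 3 gained regions held a RUNX match, an ISRE pair with an E-box, and a PU.1/SpiB match, in this order.
chr11:88816719-88816918 (Akap1): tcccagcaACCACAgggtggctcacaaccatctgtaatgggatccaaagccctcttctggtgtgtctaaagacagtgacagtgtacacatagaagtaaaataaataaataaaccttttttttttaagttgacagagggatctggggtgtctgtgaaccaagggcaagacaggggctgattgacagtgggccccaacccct
chr2:44557432-44557631 (Gtdc1): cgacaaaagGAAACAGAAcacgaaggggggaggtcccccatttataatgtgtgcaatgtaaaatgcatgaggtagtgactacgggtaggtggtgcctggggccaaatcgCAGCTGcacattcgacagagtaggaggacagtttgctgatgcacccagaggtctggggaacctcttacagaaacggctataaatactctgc
chr1:191643851-191644050 (Gm37349): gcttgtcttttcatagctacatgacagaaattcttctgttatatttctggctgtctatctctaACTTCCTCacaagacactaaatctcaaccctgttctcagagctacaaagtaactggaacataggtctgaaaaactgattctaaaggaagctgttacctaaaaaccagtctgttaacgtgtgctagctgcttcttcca
The most accessible member in WT held a RUNX match.
chr3:5860485-5860684 (Gm25352): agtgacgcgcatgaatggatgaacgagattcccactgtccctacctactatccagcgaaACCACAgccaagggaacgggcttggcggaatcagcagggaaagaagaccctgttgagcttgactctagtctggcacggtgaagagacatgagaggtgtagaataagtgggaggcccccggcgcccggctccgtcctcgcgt

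By their medians, the members were shorter and less open than all peaks together. Their median length was 744 bp against 910 bp over all peaks, and their median level in WT was 2.71 CPM against 4.34 CPM. The median GC content was 46.7% against 48.2%, repeats covered a median of 16.6% against 13.8% of the sequence, and the median distance to the nearest TSS was 20793 bp. Gene body peaks over 10 kb from a TSS had median lengths and WT levels of 782 bp and 2.84 CPM. Intergenic peaks had 725 bp and 3.40 CPM within 10 kb, and 763 bp and 2.01 CPM beyond 100 kb. The short length and low level were thus not particular to the members. Of the members, 4290 lay 10 to 20 kb, 3800 lay 20 to 50 kb and 1000 lay 50 to 100 kb from the nearest TSS. The nearest TSS belonged to a protein-coding gene for 4292 members and to another kind of gene, such as a lincRNA or pseudogene, for 4798. Members held 7.03% ± 0.145 (SD, n = 4) of all fragments in peaks in WT, 7.01% ± 0.219 (n = 4) in C, 6.77% ± 0.333 (n = 4) in K and 6.77% ± 0.130 (n = 5) in CK. The values of all 4 genotypes overlapped, with 6.83% to 7.14% in WT and 6.65% to 6.94% in CK. The median biological coefficient of variation was 0.107 over members and 0.0946 over all peaks.

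None of the 5 most accessible members in WT was called in any mutant. The peak at chr3:52395956-52401311 lay 24.1 kb upstream of the pseudogene Gm38098 and 128 kb from Foxo1, the gene of a transcription factor of the GC dark zone. It reached 199, 194, 186 and 212 CPM in WT, 180, 179, 195 and 198 in C, 177, 169, 181 and 197 in K, then 191, 182, 165, 182 and 173 in CK. The genotypes overlapped, and its log2 fold change in CK was -0.15 ± 0.05 (SE, edgeR adjusted p = 0.0445). The highest peak of all, at chr3:5860345-5860823 near Gm25352, varied more between mice of 1 genotype, from 200 to 276 CPM in WT and from 192 to 304 CPM in CK. The other 3, near Gm4832, Gm26061 and Gm15707, averaged 175, 165 and 155 CPM in WT and 164, 148 and 150 CPM in CK.

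CK had the most called members, and in CK and K more members were lost than gained. Differentially accessible peaks (DAPs) were those whose edgeR quasi-likelihood p, adjusted over all 65483 peaks, was under 0.01. In CK, 490 members were DAPs (5.39%, against 6.84% of all peaks), of which 182 were gained (2.0%, against 3.54% of all peaks) and 308 were lost (3.39%, against 3.30% of all peaks). Losses thus made up 62.9% of the called members and 48.2% of all called peaks. The share of members called was below that of all peaks for gains and close to it for losses, and this difference was not tested. Losses also exceeded gains in CK among gene body peaks over 10 kb from a TSS (4.30% lost, 1.60% gained). The same held for intergenic peaks within 10 kb of a TSS (3.71% and 1.75%), so this excess was not particular to the members. The median log2 fold change was 0.67 among gained and -0.55 among lost members, and 250 of the 490 changed more than 1.5-fold. Over all members the median was -0.002. At an unadjusted p under 0.05 there were 2500 members. The myeloid sum and the NK-cell marker given above were also higher in every CK mouse than in every WT mouse. Of the genes behind them, only Cebpa and Eomes separated these mice, as did Gata3 and Sdc1 among the T-cell and plasma cell markers. The count of called members fell to 314 without WT replicate 3 and to 235 without WT replicate 4, with 195 and 150 of these lost.

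**Figure D1:**
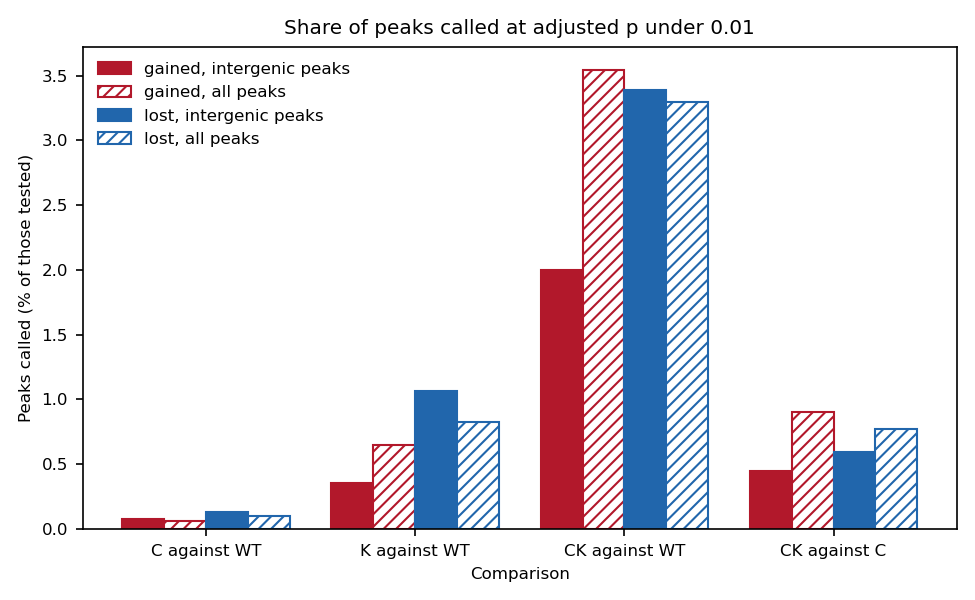
Percentage of peaks called at an adjusted p under 0.01 (y axis) in each comparison (x axis), with filled bars for the 9090 intergenic peaks and hatched bars for all 65483 peaks, gained in red and lost in blue. In CK against WT the lost bars are of similar height (3.39% and 3.30%), while the gained bar of the intergenic peaks (2.0%) is lower than that of all peaks (3.54%).

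In K, 129 members were DAPs (1.42%, against 1.48% of all peaks), with 32 gained (0.352%, against 0.647% of all peaks) and 97 lost (1.07%, against 0.828% of all peaks). Losses were 75.2% of these calls, and 65.4% when libraries were centred within bins of GC content. The median log2 fold change was 0.77 among gained and -0.69 among lost members, and 1761 members had an unadjusted p under 0.05. The count fell to 72 without WT replicate 2, 55 without WT replicate 3, 35 without WT replicate 4 and 31 without K replicate 1.

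In C, 19 members were DAPs (0.209%, against 0.160% of all peaks), with 7 gained (0.0770%, against 0.0596% of all peaks) and 12 lost (0.132%, against 0.101% of all peaks). These 19 come from the fit without pairing. The C and WT libraries were taken as paired by replicate number. With this number as a block in the fit of all 17 libraries, K and CK included, there were 33 DAPs, with 10 gained and 23 lost. Of the 19, 14 lay in windows of 5 Mb that held at least 3 C DAPs each, with 10 on chromosome 11, 3 on chromosome 7 and 1 on chromosome 5. There were 11 such windows, which held 255 members in all. At an unadjusted p under 0.05 there were 803 members. The count was 9, 11 and 12 without WT replicates 1, 2 and 3, and 10, 8 and 10 without C replicates 1, 2 and 4. Without C replicate 2 the direction turned, with 5 gained and 3 lost. Losses were 63.2% of the called members in C and 62.9% of all peaks called there.

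The genotypes were also set side by side at the members called in CK, each against the same WT mice. Among the 308 lost members, which were chosen on the CK values, the median log2 fold change for C, K and CK was -0.20, -0.40 and -0.55. Since the WT mice are shared and the members were selected on them, the C and K values are not independent of that choice. Among the 182 gained members the medians for C, K and CK were 0.26, 0.45 and 0.67.

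Members lost in CK were more accessible in WT than other members. Their median level in WT was 11.8 CPM, against 2.71 CPM over all members and 3.02 CPM for gained members, and their median length was 1300 bp against 1006 bp for gained members. The WT values also enter the test, so these levels are a description. When members were divided into 4 equal groups by their mean CPM over all 17 mice, 0.572% of the lowest group (0.118 to 1.24 CPM) and 7.70% of the highest (7.20 to 214 CPM) were lost, while 0.880% and 2.64% were gained. Higher counts also give the test more power. The median log2 fold change in CK, which does not depend on calls, was 0.063 in the lowest group and -0.069 in the highest. Lost and gained members differed less in GC content, with medians of 46.5% and 49.1%.

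The shares differed less by distance from the TSS. Of members 10 to 20 kb from a TSS, 3.36% were lost and 1.89% gained in CK, of those 20 to 50 kb away 3.50% and 2.11%, and of those 50 to 100 kb away 3.10% and 2.10%. Just outside the limits, 3.77% of 1354 intergenic peaks 8 to 10 kb from a TSS were lost and 1.48% were gained, against 2.57% and 2.32% of the 1207 members at 10 to 12 kb. Of the 265 intergenic peaks beyond 100 kb, 5.28% were lost and 2.64% gained, against 3.33% each of the 90 members at 90 to 100 kb. Members upstream of the nearest TSS and members beyond the end of the nearest gene were lost at 3.38% and 3.40%.

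**Figure D2:**
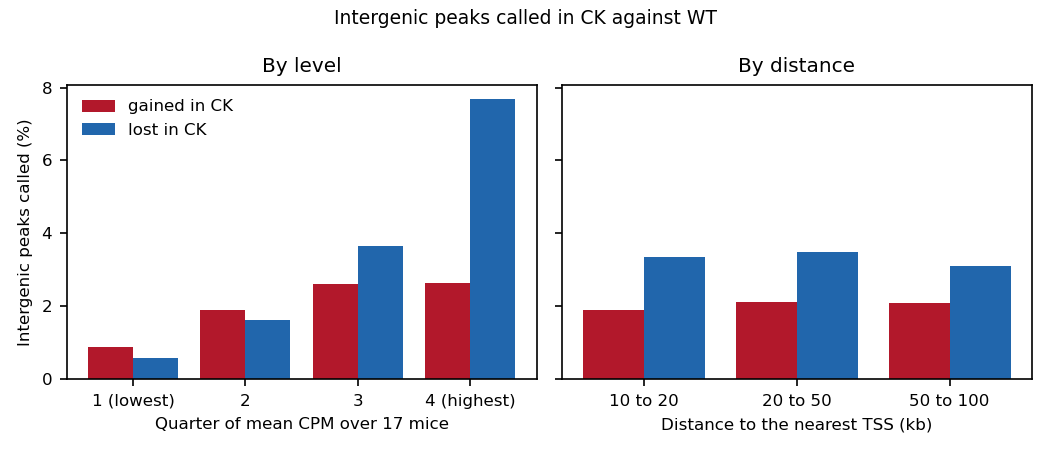
Percentage of intergenic peaks gained (red) and lost (blue) in CK against WT (y axis), by 4 equal groups of mean CPM over the 17 mice (left) and by distance to the nearest TSS in kb (right). The share lost goes from 0.572% in the lowest to 7.70% in the highest group and lies between 3.10% and 3.50% in the 3 distance bands.

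At the 3 losses in CK with the lowest adjusted p, the group means fell in the order WT, C, K and CK. These peaks were chosen on the CK and WT values, so the place of CK in this order is not a result. At none of them was C called against WT or CK called against K (edgeR adjusted p = 0.751, 0.786 and 0.461 for CK against K). The peak at chr4:55431132-55433071 lay 12.3 kb upstream of the lincRNA Gm12505 and 81.0 kb from Rad23b, which takes part in DNA repair. It measured 14.7, 15.2, 15.8 and 18.4 CPM in WT, 10.8, 9.11, 12.9 and 12.6 in C, 6.90, 7.48, 9.0 and 9.23 in K, then 8.12, 7.32, 6.96, 6.33 and 6.57 in CK. All mutant mice lay below all WT mice. K overlapped CK and, at its highest value, C. The log2 fold change was -0.50 ± 0.11 in C (SE, adjusted p = 0.0487), -0.97 ± 0.12 in K (adjusted p = 5.41e-05) and -1.18 ± 0.11 in CK (adjusted p = 6.28e-07). CK was below C (-0.68 ± 0.11, adjusted p = 0.00134), and the difference from K was -0.21 ± 0.12 (adjusted p = 0.751).

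The peak at chr4:125265627-125266734 lay 37.0 kb downstream of the nearest TSS of the lincRNA 1700041M05Rik. It was 138 kb from Zc3h12a, which encodes the mRNA-degrading enzyme Regnase-1. Its values were 11.9, 10.5, 12.8 and 16.9 CPM in WT, 8.54, 9.11, 10.9 and 11.7 in C, 5.73, 6.12, 6.70 and 6.55 in K, then 3.94, 5.60, 6.11, 4.93 and 6.11 in CK. C overlapped WT, and K and CK lay below both. The log2 fold change was -1.05 ± 0.14 in K (adjusted p = 0.000212) and -1.29 ± 0.14 in CK (adjusted p = 3.06e-06). Another of the 3 most significant losses in K was the peak at chr11:75976512-75978538 near 1700016K19Rik, which averaged 40.1 ± 4.20 CPM in WT and 25.3 ± 2.69 in K (SD, n = 4 each, adjusted p = 0.000122) and lay in a window rich in C DAPs.

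Most lost members stood alone, and the longest run of losses lay next to Magef1. When lost members were joined at the stitching distance commonly used for enhancers, the 308 formed 272 groups, of which 246 held a lone peak, 20 a pair and 6 at least 3 peaks. All 6 members in a stretch of 33.1 kb on chromosome 16 (21349998 to 21383095) were lost in CK. For 5 of them the nearest TSS was that of Magef1, annotated as a processed pseudogene, and for the other that of Vps8, which encodes a subunit of an endosomal tethering complex. Summed over the 6 peaks, accessibility was 67.1, 59.8, 69.7 and 69.7 CPM in WT, 52.1, 56.5, 55.9 and 58.5 in C, 36.8, 40.5, 44.6 and 42.9 in K, then 29.6, 30.6, 45.0, 28.7 and 30.7 in CK. The genotypes were ordered WT, C, K and CK, and only K and CK overlapped, through CK replicate 3. The stretch lies on the same chromosome as Crebbp (4081328 to 4213997), at more than 10 Mb, and fell also in K, where 5 of the 6 were DAPs.

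Within this stretch near Magef1 the log2 fold change in CK ran from -1.51 to -0.72 and in K from -1.15 to -0.35. In C it ran from -0.64 to -0.10, and none of the 6 passed the test. The peak at chr16:21364473-21365627 measured 10.5, 7.78, 10.4 and 11.2 CPM in WT, 7.60, 8.21, 6.88 and 7.81 in C, 5.68, 4.87, 6.07 and 6.32 in K, then 3.64, 5.06, 5.25, 4.43 and 3.92 in CK. CK and K lay below all WT and C mice and overlapped each other, and C overlapped WT. The log2 difference of CK from WT was -1.16 ± 0.12 (SE, adjusted p = 3.09e-06), from C -0.77 ± 0.12 (adjusted p = 0.00102) and from K -0.36 ± 0.13 (adjusted p = 0.461).

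**Figure D3:**
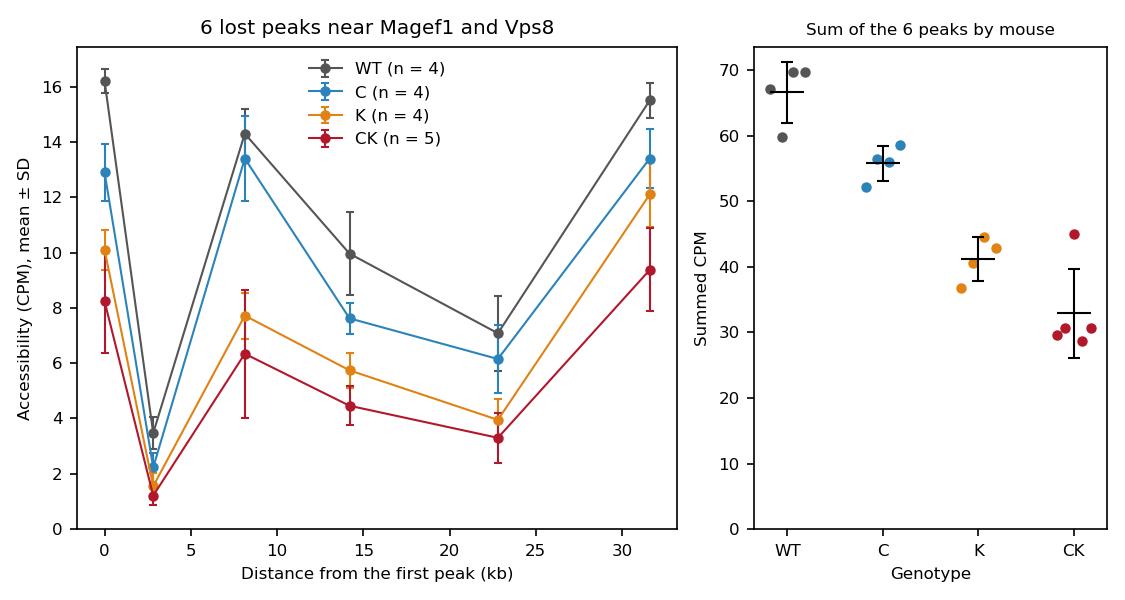
Left, accessibility (CPM, mean ± SD over 4 WT, 4 C, 4 K and 5 CK mice) of the 6 lost peaks near Magef1 and Vps8 against their distance from the first peak in kb, with lines joining peaks of 1 genotype. Right, the sum of the 6 peaks in each mouse, with the mean and SD as a bar: WT lies at 59.8 to 69.7 CPM and CK at 28.7 to 45.0 CPM.

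Other genes with several lost neighbours followed. The 3 members nearest to the lincRNA Gm31925, at chr1:161907192-161922992 (Suco is the nearest coding gene), were lost in CK and in K. Their sum was 65.9 ± 3.41 CPM in WT, 60.3 ± 3.02 in C, 47.5 ± 3.38 in K (SD, n = 4 each) and 43.7 ± 5.75 in CK (n = 5). Near Azin1, whose product binds antizyme and so raises polyamine levels, 3 of 4 members were lost in CK, with log2 fold changes from -0.54 to -0.30. Near Rybp, which encodes a Polycomb subunit, 3 of 10 members were lost, at -0.58, -0.39 and -0.61, while the other 7 ran from -0.69 to 0.17 and did not pass the test.

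Next to the immunoglobulin heavy chain constant genes, 3 of 6 members in chr12:113227743-113245436 were lost in CK, nearest to Gm25622 and Igha. The region 3' of Igha is known for a regulatory region that acts on transcription and class switching of the heavy chain. The 3 lost peaks summed to 121, 124, 129 and 159 CPM in WT, 110, 115, 113 and 123 in C, 113, 119, 109 and 123 in K, then 110, 96.6, 100, 110 and 115 in CK. CK lay below all WT mice, whereas C and K overlapped WT. The log2 fold changes in CK were -0.25, -0.58 and -0.35. The Cre that all genotypes carry sits at Ighg1, on the same chromosome.

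A further run of 4 lost members lay near Olfr693, a member of the olfactory receptor family, at chr7:106643866-106658970. It summed to 22, 21.1, 21.1 and 24.9 CPM in WT, 9.91, 9.65, 11.9 and 10.7 in C, 12.5, 17.5, 9.11 and 7.15 in K, then 7.63, 9.05, 11.2, 7.47 and 6.28 in CK. It was lower in every mutant mouse than in WT, with a wide spread within K, and it lay in a window rich in C DAPs. Likewise, 3 lost members near Gm12156 and Rnf145 on chromosome 11 summed to 44.9 ± 2.14 CPM in WT, 27.3 ± 2.21 in C, 40.8 ± 8.60 in K (SD, n = 4 each) and 28.1 ± 2.41 in CK (n = 5). The K mice there read 41.2, 43.3, 29.0 and 49.6 CPM, so that K replicate 3 lay with C and CK.

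Gained members were more scattered, with 167 of 182 alone and 1 group of 3. That group lay 90.8 to 98.7 kb from Mir148a, a microRNA gene, and its sum was 115 ± 4.42 CPM in WT, 138 ± 6.27 in C, 127 ± 12.8 in K (SD, n = 4 each) and 143 ± 9.12 in CK (n = 5). The log2 fold changes of the 3 peaks in CK were 0.28, 0.32 and 0.34. In C they were 0.26, 0.26 and 0.29, with none past the test. Pairs of gained members lay near 1700007L15Rik (0.64 and 0.67 in CK), Gm38910 next to Lrp6, a Wnt coreceptor gene (1.09 and 1.06), BC067074 (0.48 and 0.27) and the pseudogene AC090479.1 (1.08 and 1.66).

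The peak at chr2:44556808-44558254, 13.1 kb downstream of the nearest TSS of Gtdc1, was among the 3 most significant gains in CK. It measured 4.42, 3.50, 5.20 and 3.38 CPM in WT, 5.00, 4.56, 5.36 and 4.73 in C, 6.26, 6.0, 6.12 and 6.87 in K, then 7.93, 8.29, 9.42, 7.02 and 7.84 in CK. CK lay above all other mice and K above WT and C, which overlapped. The log2 fold change was 0.24 ± 0.13 in C (SE, adjusted p = 0.623), 0.61 ± 0.13 in K (adjusted p = 0.00729) and 0.97 ± 0.12 in CK (adjusted p = 1.76e-05). CK exceeded C by 0.72 ± 0.12 (adjusted p = 0.00108), and its difference from K was 0.36 ± 0.12 (adjusted p = 0.409).

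The peak at chr1:191643030-191644870, 45.4 kb from Gm37349 and 67.3 kb from Ints7, an Integrator subunit gene, read 4.47, 4.91, 4.83 and 4.26 CPM in WT, 6.70, 5.68, 5.06 and 6.16 in C, 6.90, 7.25, 8.11 and 7.71 in K, then 7.78, 9.05, 7.29, 10.6 and 10.6 in CK. All mutant mice were above all WT mice. The log2 fold change was 0.70 ± 0.13 in K (SE, adjusted p = 0.00293) and 0.97 ± 0.12 in CK (adjusted p = 1.82e-05). In K, the peak at chr13:49015223-49016780 near the kinase gene Wnk2 rose from 27.8 ± 1.62 to 35.2 ± 0.815 CPM (SD, n = 4 each, adjusted p = 0.000977), and it averaged 35.7 ± 0.961 in CK (n = 5).

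**Figure D4:**
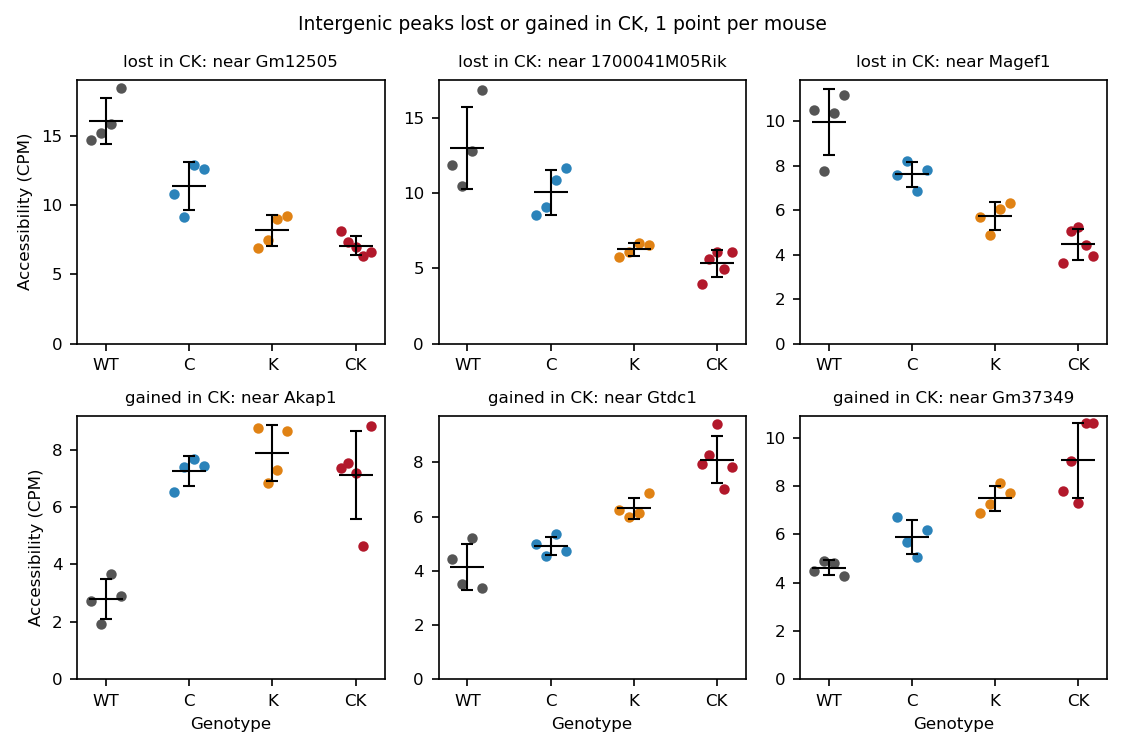
Accessibility (CPM, y axis) of the 3 most significant lost (top) and gained (bottom) intergenic peaks in CK, by genotype (x axis), with 1 point per mouse and bars for the mean ± SD (n = 4 for WT, C and K, n = 5 for CK). Near Gm12505 WT lies at 14.7 to 18.4 CPM and CK at 6.33 to 8.12 CPM, and near Gtdc1 WT lies at 3.38 to 5.20 and CK at 7.02 to 9.42.

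The remaining members with large changes in C sat mostly in the windows rich in C DAPs, where mice of 1 genotype could differ. The peak at chr11:87840663-87842115, 11.1 kb upstream of the ciliary gene Mks1, measured 1.12, 0.836, 1.41 and 1.16 CPM in WT, 11.9, 13.2, 14.7 and 14.7 in C, 8.38, 9.63, 10.8 and 10.2 in K, then 8.96, 8.02, 10.8, 0.897 and 8.70 in CK. CK replicate 4 thus lay with WT, and the other CK mice with K. The log2 fold change was 3.57 ± 0.38 in C (SE, adjusted p = 1.60e-05) and 3.10 ± 0.39 in K (adjusted p = 8.63e-05).

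The peak at chr11:88815911-88817725, 23.8 kb from the TSS of Akap1, which anchors protein kinase A at mitochondria, measured 2.71, 1.93, 3.66 and 2.88 CPM in WT, 6.51, 7.40, 7.68 and 7.43 in C, 8.76, 6.85, 7.27 and 8.63 in K, then 7.34, 7.54, 7.19, 4.63 and 8.82 in CK. All mutant mice were above WT, with log2 fold changes of 1.37 ± 0.17, 1.49 ± 0.17 and 1.33 ± 0.17 for C, K and CK (SE, adjusted p = 0.000108, 2.89e-05 and 1.51e-05). Near Gm8995 on chromosome 7, the peak at chr7:106550810-106551895 averaged 0.927 ± 0.171 CPM in WT and 4.64 ± 0.932 in C (SD, n = 4 each, adjusted p = 0.000668). In K it read 0.849, 1.02, 4.03 and 3.83 CPM, so that K fell into values near WT and values near C.

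Of the losses in C, the peak at chr11:31732414-31734472 near Gm38061 averaged 16.3 ± 0.993 CPM in WT and 7.93 ± 0.212 in C (SD, n = 4 each, adjusted p = 0.000640), and read 13.3, 16.6, 7.90 and 17.6 in K. The peak at chr11:79755882-79757390 near 9130204K15Rik averaged 9.93 ± 1.27 in WT and 5.03 ± 0.245 in C (SD, n = 4 each, adjusted p = 0.00100). Outside these windows, the peak at chr2:174516209-174518307 near Gm14385 was lost in C. It measured 25.4, 24.5, 24.5 and 29.5 CPM in WT, 16.4, 17.5, 18.2 and 18.1 in C, 23.1, 19.3, 19.9 and 22 in K, then 15.1, 15.6, 19.7, 16.5 and 15.7 in CK. C and CK lay below K, with an overlap at 19.7 in CK, and K lay below WT. The log2 fold change was -0.57 ± 0.08 in C (SE, adjusted p = 0.00100) and -0.65 ± 0.08 in CK (adjusted p = 1.51e-05). What sets the values in the windows rich in C DAPs was not tested.

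The heterozygous losses were next compared with each other. Adding Kmt2d loss to Crebbp loss (CK against C) called 95 members (1.05%, against 1.68% of all peaks), with 41 gained (0.451%, against 0.907% of all peaks) and 54 lost (0.594%, against 0.770% of all peaks). At an unadjusted p under 0.05 there were 1564 members. The count was 149 with Y chromosome signal as a covariate. It was 57, 49, 40 and 21 without C replicates 1 to 4, and 38 and 58 without CK replicates 1 and 4. Without C replicate 3 the balance turned, with 21 gained and 19 lost.

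Adding Crebbp loss to Kmt2d loss (CK against K) called 1 member (0.0110%, against 0.00916% of all peaks), with 716 members at an unadjusted p under 0.05. It was the peak at chr19:61151397-61152678, 10.6 kb upstream of the zinc finger gene Zfp950. It measured 44.0, 45.9, 44.5 and 45.6 CPM in WT, 41.7, 43.2, 44.6 and 47.9 in C, 22.8, 40.9, 23.4 and 24.9 in K, then 48.5, 45.0, 46.0, 44.8 and 45.3 in CK. Only K replicates 1, 3 and 4 were low, and K replicate 2 lay near the other genotypes. CK exceeded K by 0.72 ± 0.10 on the log2 scale (SE, adjusted p = 0.00481). The call was lost without WT replicate 3 (adjusted p = 0.0103), K replicates 1 and 4 (0.0545 and 0.0227) and CK replicates 1, 2 and 3 (0.0123, 0.0164 and 0.0134), with a filter of 50 counts in 4 libraries (0.0118) and when only K and CK were fitted (0.105).

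Additivity was tested by setting the CK change against the C and K changes added on the log2 scale, and 2 members departed from it (0.0220%, against 0.0107% of all peaks), with 409 members at an unadjusted p under 0.05. Both were the gained peaks on chromosome 11 described above. At the Mks1 peak the departure was -3.96 ± 0.48 on the log2 scale (SE, adjusted p = 0.000393) and at the Akap1 peak -1.52 ± 0.22 (adjusted p = 0.00433). At the Mks1 peak the log2 fold change for C, K and CK was 3.57, 3.10 and 2.71. The call at the Akap1 peak was lost without WT replicates 1, 2 and 4 (adjusted p = 0.0171, 0.0170 and 0.0110), C replicates 2, 3 and 4 (0.0164, 0.0163 and 0.0162) and K replicates 1 and 4 (0.0189 and 0.0181).

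Members were then read by the genes next to them, using lists of genes for GC biology. A gene was assigned to a member only as the gene of the nearest TSS, which does not show that the member acts on it. The counts below are to be read against the 3.30% of all peaks lost and 3.54% gained in CK (3.39% and 2.0% of members), and nothing particular to a list follows from counts this small. Of 27 members nearest to B-lineage and GC transcription factor genes, 2 were lost (against 3.30% of all peaks) and none was gained in CK, with a list median of -0.02 (log2) against 0.003 over all peaks. These lay upstream of Pou2af1 and Pou2f2, which encode the coactivator OCA-B and its partner OCT2, which act together on octamer sites in B cells. The Pou2af1 peak at chr9:51194649-51195441 measured 5.69, 4.86, 5.76 and 7.36 CPM in WT, 5.33, 4.65, 5.91 and 4.94 in C, 4.67, 4.98, 5.65 and 4.01 in K, then 3.30, 4.31, 4.40, 4.38 and 3.63 in CK. CK lay below all WT mice, while C and K overlapped WT. The log2 fold change in CK was -0.56 ± 0.13 (SE, adjusted p = 0.00532), and the call was lost without WT replicates 3 and 4 (0.0137 and 0.0407) and CK replicates 1 and 5 (0.0181 and 0.0116). The Pou2f2 peak at chr7:25197687-25199173 read 6.01, 3.97, 5.58 and 4.93 CPM in WT, 5.43, 5.01, 4.35 and 4.73 in C, 4.09, 4.59, 5.18 and 4.24 in K, then 3.64, 3.88, 2.98, 3.98 and 2.82 in CK. CK overlapped WT through WT replicate 2 alone. Its log2 fold change was -0.56 ± 0.13 (adjusted p = 0.00565), and the call was lost without WT replicates 1, 3 and 4 (0.0251, 0.0252 and 0.0141) and CK replicates 3 and 5 (0.0163 and 0.0140), and when only WT and CK were fitted (0.0136).

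Of 35 members nearest to genes of T-cell help and light zone activation, 3 were lost (against 3.30% of all peaks) and none gained in CK (list median -0.09). Both Cd83 peaks lay upstream of this light zone activation gene. The one at chr13:43750225-43752932 averaged 42.1 ± 4.69 CPM in WT and 31.4 ± 4.98 in CK (SD, n = 4 and 5, log2 fold change -0.43 ± 0.10, SE, adjusted p = 0.00369). The one at chr13:43761278-43761586 went from 10.7 ± 0.330 to 8.11 ± 0.791 CPM (adjusted p = 0.00593). The third, 14 kb upstream of Tnfrsf14, the gene of the receptor HVEM that engages BTLA on T cells, went from 63.3 ± 4.10 to 54.2 ± 3.23 CPM (adjusted p = 0.00448). These calls were close to the threshold. The first Cd83 call was lost without WT replicates 3 and 4 (adjusted p = 0.0109 and 0.0281) or CK replicates 2, 3 and 4 (0.0119, 0.0115 and 0.0103), and that of Tnfrsf14 without WT replicates 1 and 3 (0.0239 and 0.0134) or CK replicates 2 and 4 (0.0110 and 0.0162). The second Cd83 call was lost without any 1 WT mouse (0.0147, 0.0120, 0.0139 and 0.0222 for replicates 1 to 4) or CK replicates 1 to 4 (0.0142, 0.0174, 0.0103 and 0.0162), and when only WT and CK were fitted (0.0101).

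Of 25 members nearest to genes of plasma cell and memory fate, 4 were lost (against 3.30% of all peaks) and none gained in CK (list median -0.14). The peak at chr5:88508118-88509848, 16.8 kb from Jchain, the gene of the joining chain of IgM and IgA, measured 37.5, 34.2, 36.2 and 41.1 CPM in WT, 30.8, 31.7, 38.6 and 33.8 in C, 28.5, 28.1, 33.2 and 31.5 in K, then 26.9, 24.2, 27.9, 26.1 and 28.9 in CK. K and CK lay below all WT mice, and C overlapped WT. The log2 fold change was -0.29 ± 0.07 in K (SE, adjusted p = 0.0209) and -0.47 ± 0.07 in CK (adjusted p = 9.51e-05), and CK was below C (-0.33 ± 0.07, adjusted p = 0.00759). The peak at chr5:43853170-43856175, 12.4 kb upstream of the ectoenzyme gene Cd38, went from 46.3 ± 2.05 CPM in WT to 38.7 ± 1.58 in CK (SD, n = 4 and 5, adjusted p = 0.00117).

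Beyond the end of Ccr7, whose product guides B cells to the T-cell zone border, 2 members were lost. The one at chr11:99136516-99137252 went from 4.07 ± 0.477 CPM in WT to 2.27 ± 0.552 in CK (SD, n = 4 and 5, log2 fold change -0.83 ± 0.19, SE, adjusted p = 0.00395). The one at chr11:99132000-99132914 went from 14.9 ± 1.38 to 10.9 ± 1.37 CPM (adjusted p = 0.00753). The first call was lost without WT replicates 1, 3 and 4 (adjusted p = 0.0143, 0.0149 and 0.0101) or CK replicate 1 (0.0133), and the second without WT replicates 1, 3 and 4 (0.0179, 0.0351 and 0.0222) or CK replicates 1, 2 and 4 (0.0226, 0.0225 and 0.0155), and with scaling by total counts (0.0107).

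In the other lists, 1 of 30 members nearest to genes of GC confinement and chemotaxis was gained (against 3.54% of all peaks) and none lost (list median -0.08). It lay 17 kb upstream of Ptger4, a prostaglandin E2 receptor gene, and measured 19.2, 19.3, 20.7 and 20.8 CPM in WT and 23, 27, 24, 24.8 and 24.9 in CK, which did not overlap (log2 fold change 0.31 ± 0.07, SE, edgeR adjusted p = 0.00359). This call was lost without WT replicates 1 and 2 (0.0124 and 0.0137) or CK replicate 2 (0.0120). Of 6 members near apoptosis and survival genes, 1 was lost in CK (against 3.30% of all peaks) and in K, while the list median in CK was 0.08. This peak, at chr2:118518323-118520469 and 24.1 kb from the TSS of Bmf, which encodes a pro-apoptotic BH3-only protein, measured 24.2, 22.7, 24.7 and 29.4 CPM in WT, 20.2, 22.2, 21.9 and 25.6 in C, 16.5, 16.4, 19.1 and 20 in K, then 16.8, 15.1, 18.6, 16.9 and 16.2 in CK. K and CK did not overlap WT (adjusted p = 0.00298 and 7.02e-05), and C did. None of 24 members near B-cell receptor signalling genes (list median -0.10) and none of 11 near markers of other cell types (-0.02) was called in CK by edgeR at an adjusted p under 0.01.

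Finally, 14 motifs were searched on both strands in the central 200 bases of every peak. They were PU.1/SpiB (GAGGAAGT), the octamer of OCT2 and OCA-B (ATGCAAAT), EICE of PU.1 with IRF4 or IRF8 (GGAANNGAA), an ISRE pair, the core of the IRF element (GAAANNGAA), STAT (TTCNNNGAA), AP-1 (TGANTCA), NF-kB (GGGNNTTCC), an E-box (CAGCTG), E2A (CAGGTG), EBF1 (CCCNNGGGA), RUNX (TGTGGT), FOX (GTAAACA), MEF2 and CTCF. The PU.1/SpiB letters can overlap those of EICE. A match is a description of the letters and does not show binding.

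No member lost in CK held the CTCF motif. This was 0 of 308, which allows a share of up to 0.974%, against 5.14% of all members and 3.57% of all peaks. Members with this motif were of low level (median 2.25 CPM in WT), and among members of the highest of the 4 level groups that were not called, 1.91% held it. Of the 467 members with it, 5 were called in CK, all gained. Gained members held the EBF1 motif, of a factor that sets B-lineage identity, in 11% of cases (20 of 182), against 4.55% of lost members, 3.70% of members not called and 4.28% of all peaks. They held the RUNX motif in 8.79%, against 15.9% of lost members, 17.8% of members not called and 16% of all peaks. Lost members held the EICE motif in 3.90%, against 8.38% of members not called and 7.56% of all peaks. The octamer was found in 4.87% of lost and 3.85% of gained members, against 3.53% of members not called and 2.86% of all peaks, and the MEF2 motif in 6 lost members (1.95%) and 1 gained member (0.549%), against 0.605% of members not called and 0.478% of all peaks. The remaining motifs are given by the plot of motif shares, and no motif share was tested.

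**Figure D5:**
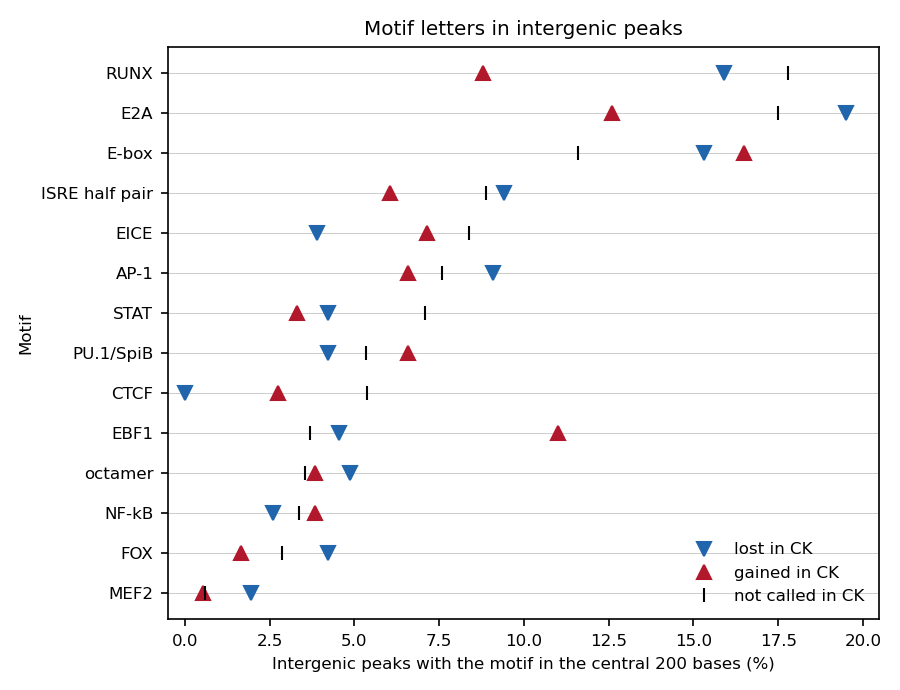
Percentage of intergenic peaks with at least 1 match in the central 200 bases (x axis) for each of 14 motifs (y axis), for the 308 peaks lost in CK (downward triangles), the 182 gained (upward triangles) and the 8600 not called (vertical ticks). CTCF lies at 0 for lost peaks and 5.37% for peaks not called, and EBF1 at 11% for gained peaks.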

How the data were processed

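The authors deposited raw counts of sequenced fragments per consensus peak, made with featureCounts 2.0.1 on duplicate-filtered libraries of the nf-core ATAC-seq pipeline (mm10), with no normalization. A fragment could count in every peak it overlapped. All 17 columns were used, and 7 CB and CC libraries of WT mice were not analysed here.

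Peaks were annotated with GENCODE M21, on the same build, GRCm38. The members and gene lists were chosen with earlier results of these data known. Counts were normalised by TMM and fitted with edgeR 4.0.16 (R 4.3.3), all 17 libraries together with 1 coefficient per genotype, and each coefficient was tested with quasi-likelihood F statistics. P-values were adjusted by Benjamini and Hochberg's method over all 65483 peaks, with a threshold of 0.01. Peaks under 10 counts in all were to be dropped, and there were 0. The test was tried on simulated data. CPM are TMM-normalised, except for the marker values, which were scaled by total counts in peaks. Adjusted p-values in the text come from edgeR.

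Peaks were named by rule: per mutant, the 3 gained and 3 lost members with the lowest adjusted p whose mutant mice all lay on 1 side of all WT mice, the 5 highest in WT, called members near listed genes (at most 5 a list), those called in CK against K or the sum, and the 5 genes nearest to the most lost and gained members. The pairs of libraries with the same replicate number correlated in their deviations from the group mean in C and WT (r = 0.14, 0.158, 0.149 and 0.224), so these were taken as paired. WT replicate 2 did not correlate best with its own number in C. In both genotypes replicates 1 and 2 had Y chromosome signal and replicates 3 and 4 did not. The part of this in the correlations was not tested. The labels do not say what a number marks, and in no other pair of genotypes did all 4 numbers pass 0.1. The mice are separate animals, and the libraries carry no molecular identifiers, so limits from counts of 0 cover counting error only. Alternatives were DESeq2 1.42.0, other normalizations, filters, thresholds, covariates and member definitions, and leaving out each mouse.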

Additional observations from a re-analysis of the deposited data

Results flagged for a closer look

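Dixon's test of a lone extreme value was applied to the 120 groups of 4 or 5 mice at the 30 peaks named, and 5 groups passed it. Chance gives about 1 in 20. At the Mks1 peak, CK replicate 4 read 0.897 CPM and the other CK mice 8.02 to 10.8. At the 9130204K15Rik peak, CK replicate 4 read 9.76 CPM and the others 5.77 to 6.86. At the Gm25352 peak, the highest in WT, CK replicate 1 read 304 CPM and the others 192 to 213. At the Cd83 peak of chr13:43761278-43761586, K replicate 4 read 10.7 CPM and the others 8.43 to 8.70. At the Zfp950 peak, K replicate 2 read 40.9 CPM and the others 22.8 to 24.9. What sets these mice apart was not tested.

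At 2 members CK departed from the sum of C and K, by the direct test of 1 against the other. The departure was -3.96 at the Mks1 peak and -1.52 at the Akap1 peak on the log2 scale. Both lie in windows of chromosome 11 where mice of 1 genotype differ. CK replicate 4 was the lowest CK mouse at both, with 0.897 CPM at the Mks1 peak and 4.63 CPM at the Akap1 peak. Only the first of these values passed Dixon's test. Without CK replicate 4, 2 members were still called for CK against the sum. The part of such differences in the departure was not tested.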

How the results depend on the processing

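No called change at a named peak reversed direction under any alternative. Of 960 recomputed values, 901 kept their status as called or not called, and 59 were no longer past the threshold. For peaks not called in either fit, a change of sign was not counted. Over the fits that left out 1 mouse, members called ran from 8 to 22 in C, 31 to 145 in K, 235 to 521 in CK, 21 to 107 for CK against C, 0 to 8 for CK against K and 1 to 3 for CK against the sum. DESeq2 called 29 members in C, 222 in K, 149 for CK against C and 5 for CK against K. At an adjusted p under 0.05 there were 34, 444 and 1268 in C, K and CK, 384 for CK against C and 3 for CK against K. Requiring a change over 1.5-fold left 85 in K, 250 in CK and 57 for CK against C. Members 20 to 50 kb away gave 11, 59 and 213 in C, K and CK, 46 for CK against C, 0 for CK against K and 1 for CK against the sum, by construction fewer. Annotation by protein-coding genes alone made a larger set, of 12788 members, so its counts are not shifts within the same peaks. Of these members, 769 were called in CK and 3 for CK against K. The filter of 50 counts gave 12 in C and 0 for CK against K, and fits of only the genotypes compared gave 41 in C and 0 for CK against K. The Y signal covariate gave 149 for CK against C. Leaving out the windows rich in C DAPs, an alternative chosen after seeing the data, left 5 in C and 0 for CK against the sum. With the replicate number as a block there were 33 members in C, 277 in K, 740 in CK, 215 for CK against C and 5 for CK against K, and the loss at the Pou2f2 peak in CK was no longer called (-0.50, adjusted p = 0.0139). The cause of these shifts was not tested. Outside C and WT the libraries were not taken as paired, although the block used the replicate numbers of all 17 libraries. In no pair of genotypes, C and WT included, did every library correlate best with its own number. The median member had 46 to 60 fragments per library, against 74 to 97 over all peaks, which limits the detection of small changes.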

Other observations

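Cxcr4, the gene of the chemokine receptor that holds centroblasts in the dark zone, was nearest to 14 members, and 0 of these were called in CK by edgeR, with log2 fold changes from -0.69 to 0.16 and a median of -0.16. With 5.39% of all members and 6.84% of all peaks called, a count of 0 among 14 is near that background. This gene was chosen after its count of members was seen.

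When members were assigned to the nearest protein-coding TSS in place of the nearest TSS of any gene, a choice made after seeing the data, 168 members fell to B-lineage and GC transcription factor genes, of which 9 were lost in CK (3.30% of all peaks were) and 3 gained (3.54% of all peaks), with a median log2 fold change of -0.07. The called members then lay nearest to Bcl6, Ebf1, Foxo1, Id3, Pax5, Pou2af1, Pou2f2, Runx1, Runx3 and Zeb2. Of 75 members nearest to T-cell help and light zone genes, 5 were lost (against 3.30% of all peaks) and none gained, now including members nearest to Myc and Traf1.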
